A study of Homo sapiens with 6 samples.

Results

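The Notch pathway genes described here are 3 receptors (NOTCH1, NOTCH2 and NOTCH3), 3 ligands (JAG1, JAG2 and DLL1) and 4 transcriptional targets (HES1, HES4, HEY1 and HEYL). They were chosen by symbol, with earlier results of these data known. All 10 are among the 57133 gene symbols counted by RNA-seq in this study of CBX8, a chromobox subunit of Polycomb repressive complex 1 that reads H3K27me3. All libraries came from T98G, an established glioblastoma (GBM) cell line, whose CBX8 gene was disrupted beforehand with Cas9 and a guide RNA. Whether the knockout line is 1 clone is not given in the sources used here. In the CBX8 KO condition (3 libraries) these knockout cells carried the empty doxycycline-inducible TetO-FUW vector together with rtTA, and in the WT CBX8 re-expression condition (3 libraries) the vector held V5-tagged wild-type CBX8. Doxycycline was given at 1 μg/ml for 72 h in both conditions, and the genotype label of the re-expression libraries reads wild type although their titles give re-expression, which was followed. Each condition is a stable line that was transduced and selected on its own, so an effect of CBX8 and a difference between the lines cannot be told apart. Nothing in the labels ties the 3 libraries of a condition to separate cultures, so p-values measure the spread between libraries, which may be technical.

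Notch signalling works between touching cells. A Jagged or Delta ligand on one cell binds a Notch receptor on its neighbour, ADAM proteases and γ-secretase then cut the receptor, and the released intracellular domain joins RBPJ and a Mastermind protein at target genes. The HES and HEY genes are the classical targets and encode basic helix-loop-helix repressors. In the nervous system the pathway is known for keeping neural progenitors and glial precursors undifferentiated, and it is often active in glioma.

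Total counts lay between 7950190 and 8659796 per library, and 14461 genes passed the filter on low counts and were tested with edgeR. Values are counts, or CPM (counts scaled to a common TMM-adjusted library size), and fold changes are re-expression over KO. CBX8 had 96, 104 and 83 counts in the KO libraries and 30372, 31408 and 27791 upon re-expression, as the titles state. The rise was 297-fold, and with no library of cells with intact CBX8, its relation to the endogenous level cannot be judged here. Among glioma markers VIM and CD44 were abundant, with a list sum of 5496 to 5800 CPM in KO and 5129 to 5529 CPM upon re-expression, whereas SOX2 had no count and NES had at most 4. CD44 was lower upon re-expression (log2 fold change -0.21, edgeR adjusted p = 0.0097), and OLIG2, at 14 to 15 counts in KO and 19 to 38 upon re-expression, did not pass the threshold (0.85, edgeR adjusted p = 0.056), both without overlap. The astrocyte list, with GFAP at 13 to 30 counts and AQP4 at 0, summed to 1.90 to 2.52 CPM in KO and 2.50 to 3.54 CPM upon re-expression. The oligodendrocyte list, with MOG at 0, reached 0.505 CPM in KO and 1.67 CPM upon re-expression. The endothelial, immune and epithelial marker lists summed to at most 2.82 CPM in any library, with AIF1 and KRT5 at 0. The neuronal list, with 2 of 4 markers above 1 CPM and STMN2 at 0, summed to 11.3 to 13.0 CPM in KO and 13.9 to 16.7 CPM upon re-expression. The part of these markers in the results was not tested, and in bulk RNA a change in the number of expressing cells and in RNA per cell cannot be told apart.

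Of the 10 Notch genes, 8 had at least 1 count and 6 passed the filter. Upon WT CBX8 re-expression 2 of the 6 were higher (NOTCH1 and NOTCH2), 1 was lower (HEY1) and 3 did not pass FDR < 0.05 (JAG1, HES1 and HES4). Over all genes tested 6.23% were called higher and 6.63% lower, and 12.9% in either direction. The median log2 fold change of the 6 was 0.18, against 0.0049 for all tested genes, and 5 of the 6 values were positive. All 3 called changes were small, between 1.13-fold and 1.25-fold for the receptors and 0.794-fold for HEY1, and none passed FDR < 0.01.

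**Figure D1:**
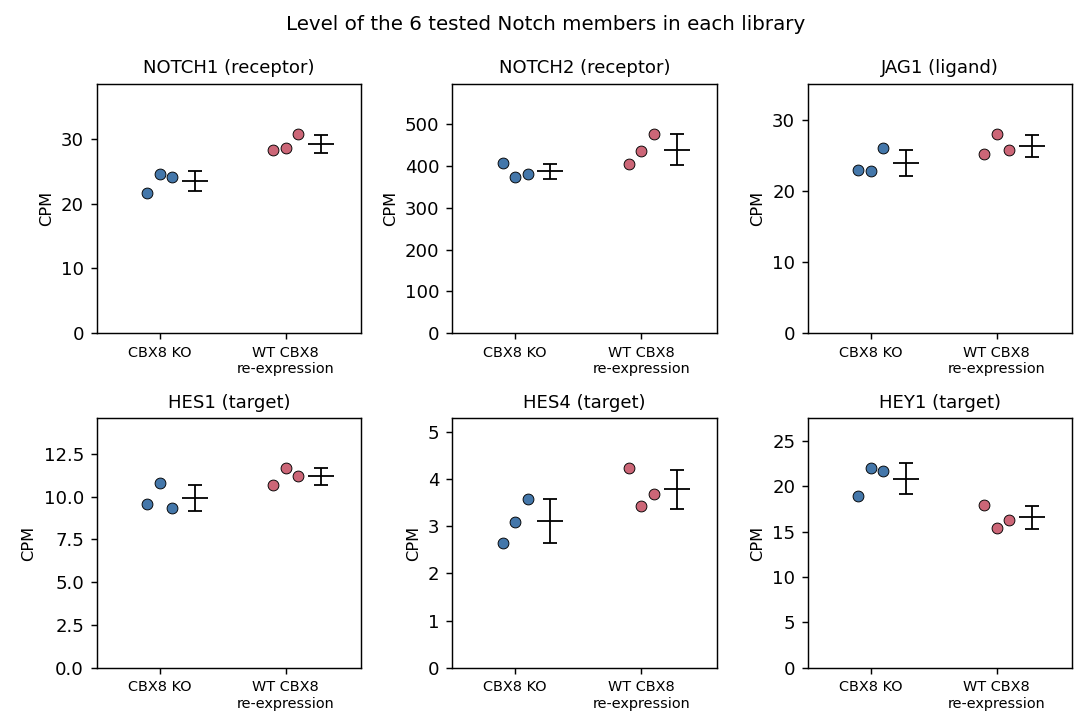
CPM (y axis, linear from 0) of the 6 tested Notch genes in each library of CBX8 KO (blue) and WT CBX8 re-expression (red), with the mean and SD of 3 libraries as black bars. The re-expression libraries lie above all KO libraries for NOTCH1 and below them for HEY1, and the conditions overlap for the other 4 genes.

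NOTCH2 was the dominant receptor. Notch receptors are single-pass membrane proteins whose EGF repeats bind ligand outside the cell. NOTCH2 (ENSG00000134250.21, minus strand of chromosome 1, 119911553 to 120100779 in hg38) had 3238, 3146 and 2972 counts in KO and 3438, 3827 and 4018 upon re-expression. KO replicate 1, at 408.7 CPM, lay above re-expression replicate 1, at 404.1 CPM, so these values overlapped, while the other 2 re-expression libraries lay above all KO libraries. The mean rose from 388 ± 18.5 to 440 ± 37.2 CPM (SD, n = 3 per condition), or 0.18 ± 0.06 (SE) on the log2 scale, with an adjusted p of 0.030 in edgeR. The rise did not pass 0.05 in 4 of the 6 fits that left out 1 library. These were the fits without CBX8 KO replicate 2 (0.16, edgeR adjusted p = 0.158), without KO replicate 3 (0.17, 0.086), without re-expression replicate 2 (0.19, 0.079) and without re-expression replicate 3 (0.12, 0.209). NOTCH2 shares 996 matching bases at 98.4% identity with the NOTCH2NLA transcript, which is 8.7% of the NOTCH2 transcript, and a like stretch with NBPF10, NBPF14 and NBPF26. NOTCH2NLA holds 5 to 11 counts per library and the NBPF genes 18 to 123, and how reads of the shared stretch were assigned is not given in the sources used here.

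NOTCH1 (ENSG00000148400.13, minus strand of chromosome 9, 136494433 to 136546048 in hg38), the receptor best known in neural progenitors, was expressed at a far lower level. It had 172, 207 and 188 counts in KO and 241, 250 and 259 upon re-expression. The lowest re-expression library, at 28.3 CPM, was above the highest KO library, at 24.6 CPM. Of all tested genes 14.4% were higher and 14.4% lower without overlap between conditions, 28.9% together, against 2 of the 6 Notch genes. The mean rose from 23.5 ± 1.54 to 29.2 ± 1.39 CPM (SD, n = 3 per condition), or 0.32 ± 0.09 (SE) on the log2 scale, with an adjusted p of 0.024 in edgeR. Without each library in turn the log2 fold change was 0.26 to 0.35, and its direction there follows from the conditions not overlapping. The call was lost without KO replicate 1 (edgeR adjusted p = 0.102), without re-expression replicate 3 (0.098) and with DESeq2 (0.091).

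Genes called higher had transcripts of higher GC content and greater length than genes called lower. The NOTCH1 transcript is 9568 bases long with 63.5% GC and that of NOTCH2 is 11425 bases with 49.4% GC. Over all genes with these annotations, the median was 53.4% GC and 4288 bases for genes called higher, 45.2% GC and 3398 bases for genes called lower, and 47.9% GC and 3234 bases for all tested. With each library corrected for these 2 trends, the log2 fold change was 0.19 for NOTCH1 (edgeR adjusted p = 0.148) and 0.10 for NOTCH2 (edgeR adjusted p = 0.126), so neither rise was called. HEY1, with 46.7% GC and 2197 bases, stayed called at -0.31 (edgeR adjusted p = 0.041).

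NOTCH3, the receptor of vascular mural cells, was near the limit of detection, with 1, 1 and 3 counts in KO and 2, 1 and 3 upon re-expression, at or under the limit of 3 counts, so no fold is given. Scaled to transcript length, NOTCH2 made up 92.2 to 94.0% of the summed level of the 3 receptors in every library. The NOTCH2 to NOTCH1 ratio of length-scaled level was 13.9 ± 1.63 in KO and 12.6 ± 0.560 upon re-expression (SD, n = 3 each). The KO and re-expression ratios overlapped (two-sided exact permutation p = 0.30, with 0.10 the smallest that 3 against 3 libraries allow).

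Among the ligands, JAG1 was expressed at a moderate level, JAG2 was barely detected and DLL1 had no count. JAG1 (ENSG00000101384.12, minus strand of chromosome 20, 10637684 to 10673999 in hg38) had 182, 192 and 204 counts in KO and 214, 246 and 217 upon re-expression. KO replicate 3, at 26.1 CPM, lay within the re-expression range of 25.2 to 28.1 CPM. The means were 24.0 ± 1.86 and 26.4 ± 1.54 CPM (SD, n = 3 each), and the log2 fold change of 0.14 did not pass the threshold (95% interval -0.059 to 0.34, edgeR adjusted p = 0.398). An annotated lncRNA overlaps JAG1 exons on the opposite strand, and the strand setting of the counting is not given in the sources used here.

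JAG2 (ENSG00000184916.9, minus strand of chromosome 14, 105140982 to 105168824 in hg38) had 1, 4 and 1 counts in KO and 7, 8 and 6 upon re-expression, so the conditions did not overlap. These counts were too low for the filter, and an annotated lncRNA overlaps JAG2 exons on the same strand. The summed counts, 6 against 21, give a ratio of 3.29 after scaling for depth, with an exact 95% interval of 1.29 to 9.98 that covers counting error only. Tested without the filter, JAG2 did not pass 0.05 (log2 fold change 1.65, edgeR adjusted p = 0.133 over 28010 genes). DLL1, a Delta-type ligand, had 0 counts in all 6 libraries, which for reads assigned to it allows up to 0.0602 CPM over the 6 together and up to 0.384 CPM in a single library. Of 261 alternate contigs of hg38, 1 carries a copy of DLL1 that matches at least 95% of its transcript bases. FAM120B, with 2, 3 and 0 counts in KO and 0 in each re-expression library, overlaps DLL1 exons on the opposite strand over 370 bases, 9.8% of the transcript. How reads of either stretch were counted is not given, so the level of DLL1 is uncertain beyond these limits.

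**Figure D2:**
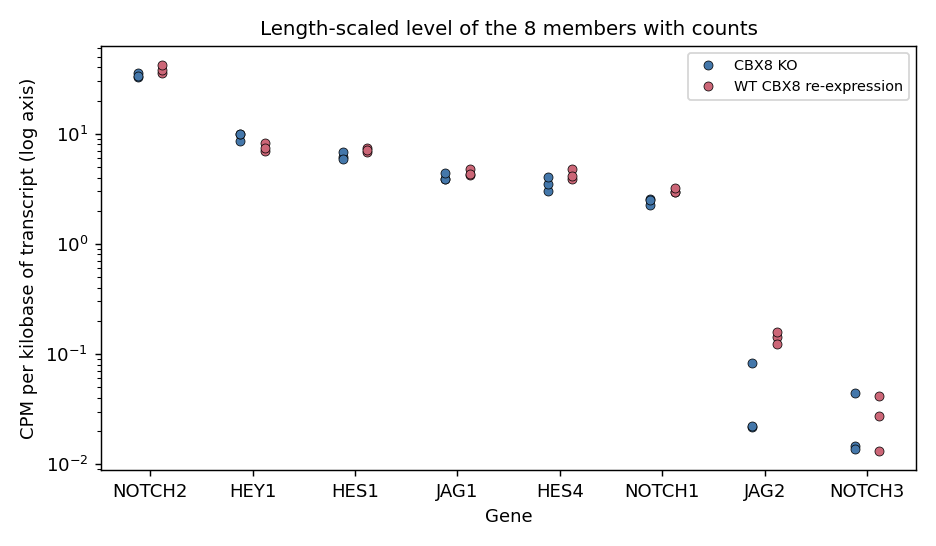
CPM per kilobase of transcript (log axis) for the 8 Notch genes with counts, with a point for each library of CBX8 KO (blue) and WT CBX8 re-expression (red). NOTCH2 lies above all other members in every library, and JAG2 and NOTCH3 lie below 0.16 throughout.

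Levels were set side by side between genes after scaling to transcript length, which leaves differences in GC content and read assignment uncorrected. Over the 6 libraries, NOTCH2 averaged 36.2 CPM per kilobase, ranging from 32.7 to 41.9. HEY1 followed at 8.52 (7.02 to 10.0) and HES1 at 6.70 (5.93 to 7.40), and their ranges overlapped. JAG1 averaged 4.24 (3.84 to 4.73) and HES4 3.89 (2.99 to 4.78), also with overlapping ranges, while all HES1 libraries were above all JAG1 libraries. NOTCH1 was lowest of the 6 at 2.75 (2.27 to 3.22), and its range overlapped that of HES4.

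The targets are introduced by the sequence upstream of their start sites, because the pathway acts on them through RBPJ, a DNA-binding protein that recognizes TGGGAA. The 250 bases before the RefSeq start sites (GRCh38.p14) are shown 5′ to 3′ on the strand of the gene for HES1 (chr3:194135898-194136147, plus strand), HES4 (chr1:1000098-1000347, minus strand, from a start that lies within the GENCODE gene) and HEYL (chr1:39639644-39639893, minus strand), with TGGGAA, or TTCCCA where it lies on the other strand, in capitals.
HES1: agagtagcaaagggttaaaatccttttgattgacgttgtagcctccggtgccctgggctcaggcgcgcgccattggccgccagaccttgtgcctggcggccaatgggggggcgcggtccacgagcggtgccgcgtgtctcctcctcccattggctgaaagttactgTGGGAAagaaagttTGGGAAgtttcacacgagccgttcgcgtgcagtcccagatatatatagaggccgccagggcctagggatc
HES4: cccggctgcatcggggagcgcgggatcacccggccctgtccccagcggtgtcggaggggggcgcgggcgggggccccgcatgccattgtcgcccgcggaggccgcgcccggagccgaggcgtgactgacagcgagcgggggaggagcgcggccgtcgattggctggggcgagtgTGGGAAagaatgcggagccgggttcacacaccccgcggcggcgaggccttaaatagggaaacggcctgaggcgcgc
HEYL: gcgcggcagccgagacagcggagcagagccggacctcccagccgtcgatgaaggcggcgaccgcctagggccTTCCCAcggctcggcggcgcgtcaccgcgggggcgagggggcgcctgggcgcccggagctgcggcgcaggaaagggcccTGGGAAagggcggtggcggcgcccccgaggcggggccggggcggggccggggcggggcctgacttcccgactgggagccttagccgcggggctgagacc
In HES1 the matches begin 84 and 70 bases before the start on the strand of the gene, and the single match of HES4 begins 76 bases before it. HEYL has a match on each strand. In windows of 300 bases (250 before the start to 50 after it), searched on both strands, 24.0% of 35116 RefSeq promoters hold TGGGAA and 3.8% hold it at least 2 times. The windows of NOTCH1, NOTCH2, NOTCH3, JAG1 and JAG2 hold no match. The N-box CACNAG, bound by HES proteins, has 4 matches in the HES1 window, none of which overlaps TGGGAA. The NOTCH1 window holds 2 matches, those of NOTCH2 and NOTCH3 1 each, and those of JAG1, JAG2, HES4 and HEYL 0. Of all windows 38.0% hold the N-box and 8.94% hold it at least 2 times. The E-box CACGTG has no match in the windows of the 8 members that could be searched and occurs in 7.26% of all. HEY1 and DLL1 had no entry among these promoters, so they were not searched for any of the motifs. HES1 is known to repress its own gene through N-boxes.

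HES1 (ENSG00000114315.4, plus strand of chromosome 3, 194136148 to 194138732 in hg38), the repressor that holds back neuronal differentiation, had 76, 91 and 73 counts in KO and 91, 102 and 94 upon re-expression. KO replicate 2, at 10.8 CPM, exceeded re-expression replicate 1, at 10.7 CPM. The means were 9.92 ± 0.786 and 11.2 ± 0.478 CPM (SD, n = 3 each), and the log2 fold change of 0.17 did not pass the threshold (95% interval -0.094 to 0.44, edgeR adjusted p = 0.446). HES4 (ENSG00000188290.11, minus strand of chromosome 1, 998962 to 1000172 in hg38), a related repressor without a mouse counterpart, had 21, 26 and 28 counts in KO and 36, 30 and 31 upon re-expression. The KO values reached 3.58 CPM and the re-expression values began at 3.43 CPM. With so few counts the interval of its log2 fold change was wide (0.28, 95% interval -0.19 to 0.76, edgeR adjusted p = 0.489). HEYL, a HEY-family member of vascular smooth muscle, had 0 counts in all 6 libraries, with the same limits as DLL1.

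HEY1 (ENSG00000164683.19, minus strand of chromosome 8, 79762371 to 79767857 in hg38) is a repressor that acts in neural precursors and in arterial development. Of the targets listed at the start, it alone changed in the test with all libraries. It had 150, 185 and 169 counts in KO and 153, 135 and 137 upon re-expression. On the CPM scale all KO libraries (18.9, 22.0 and 21.6) lay above all re-expression libraries (18.0, 15.4 and 16.3). The mean fell from 20.8 ± 1.67 to 16.6 ± 1.30 CPM (SD, n = 3 per condition), or -0.33 ± 0.11 (SE) on the log2 scale, with an adjusted p of 0.038 in edgeR. The value stayed between -0.40 and -0.28 with 1 library left out. The call was lost without CBX8 KO replicate 2 (edgeR adjusted p = 0.146) or 3 (0.10), without re-expression replicate 2 (0.180) or 3 (0.093), with library size scaling (0.094) and with DESeq2 (0.145).

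HEY1 and HES1 had fold changes of opposite sign. The ratio of HEY1 to HES1, formed within each library from length-scaled levels and chosen after the values were seen, was 1.42, 1.46 and 1.66 in KO. It was 1.20, 0.949 and 1.05 upon re-expression. The ratio does not depend on library scaling, and the conditions did not overlap (means 1.51 ± 0.131 and 1.07 ± 0.130, SD, n = 3 each). The two-sided exact permutation p was 0.10, the smallest possible here. HEY1 made up 48.7 to 49.7% of the summed length-scaled level of the 4 targets in KO and 38.4 to 41.4% upon re-expression. Both the ratio and this share contain the HEY1 values, which did not overlap on their own, so neither is a result separate from the fall of HEY1. How often ratios of other gene pairs do not overlap was not tested.

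The other Notch pathway genes were taken from a list of 56 genes ordered by role, of which 44 were tested. Upon re-expression 5 were higher (LFNG, NEURL1B, APH1B and TLE2 among them), 2 were lower (RBPJ and FBXW7) and 37 did not pass the threshold. The median log2 fold change of the 44 was 0.06, with 32 values above 0 and 12 below. The share called in either direction over all genes, 12.9%, is the background for these counts.

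**Figure D3:**
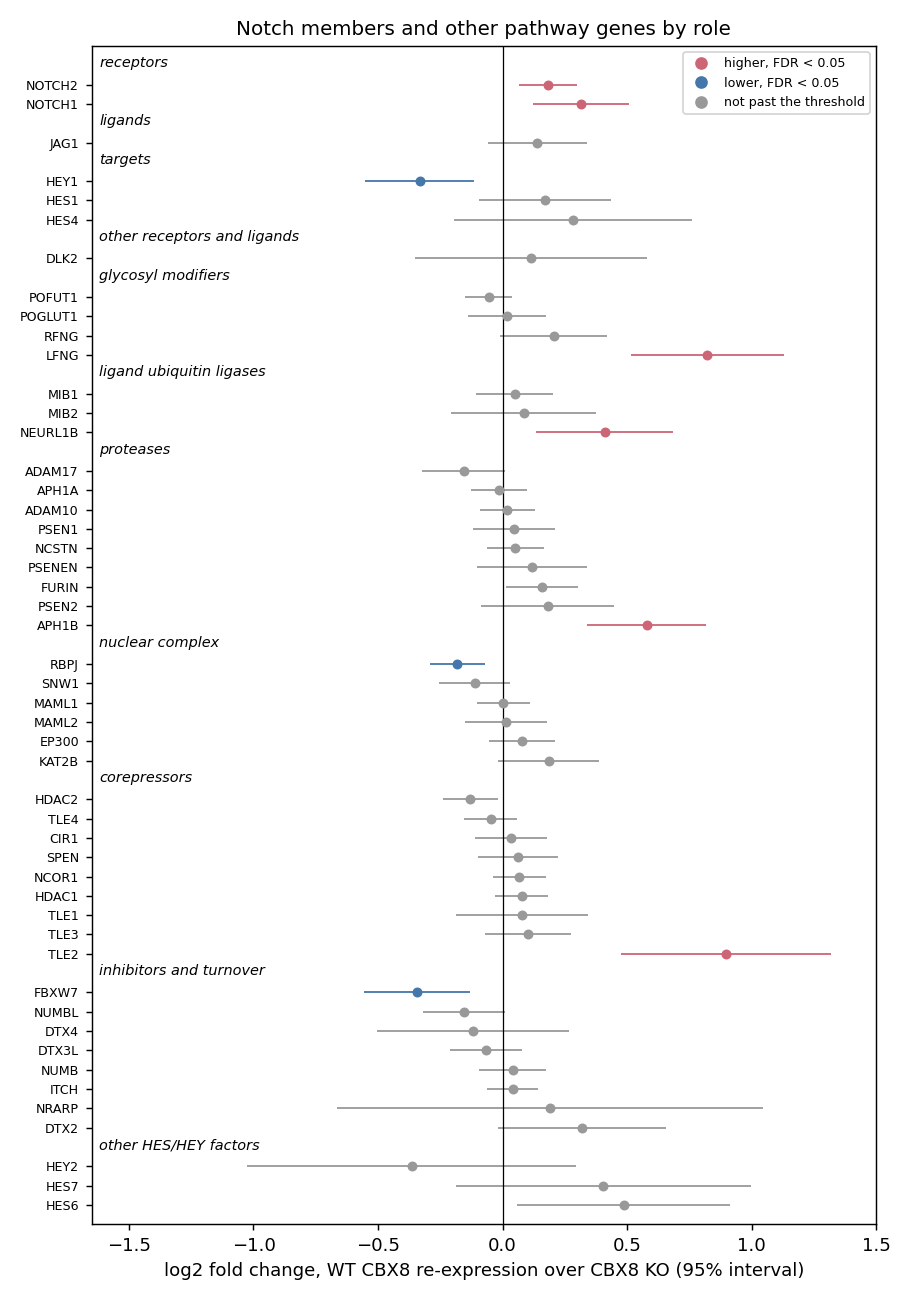
Log2 fold changes, WT CBX8 re-expression over CBX8 KO (x axis), with 95% intervals for the 6 tested members and the other tested pathway genes but 1 that is not shown, grouped by role on the y axis. Red marks genes higher and blue marks genes lower at FDR < 0.05, and LFNG, TLE2 and APH1B lie farthest to the right.

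The changes that were called under all 17 alternative settings run for each gene were those of LFNG, APH1B and TLE2. None of them is among the receptors, ligands and targets listed at the start. LFNG, the Lunatic fringe glycosyltransferase that extends O-fucose on Notch EGF repeats and shifts their ligand preference, had 46, 53 and 52 counts in KO and 105, 98 and 81 upon re-expression. All re-expression libraries were above all KO libraries. Its mean rose from 6.25 ± 0.426 to 11.1 ± 1.35 CPM (SD, n = 3 per condition), or 0.82 ± 0.15 (SE) on the log2 scale (edgeR adjusted p = 0.00036), and 0.73 to 0.91 over the alternatives. The other tested modifiers did not pass, and POFUT1, the O-fucosyltransferase that provides the sugar LFNG extends, had the highest CPM of them at 301 ± 4.35 and 290 ± 4.61 CPM (log2 fold change -0.06, edgeR adjusted p = 0.496).

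Of the 9 proteases, only APH1B was called. APH1A and APH1B encode alternative subunits of γ-secretase. APH1B had 86, 97 and 100 counts in KO and 157, 140 and 152 upon re-expression, without overlap. It rose by 0.58 ± 0.12 (SE) on the log2 scale (edgeR adjusted p = 0.0010). APH1A, with 968 to 1116 counts per library, had a log2 fold change of -0.01 (95% interval -0.13 to 0.098). ADAM10, which makes the cut that precedes γ-secretase, had the highest CPM of the proteases and a value of 0.02 (95% interval -0.090 to 0.13, edgeR adjusted p = 0.870). NEURL1B, a ubiquitin ligase that promotes ligand endocytosis, had 81, 98 and 84 counts in KO and 145, 104 and 122 upon re-expression. It was called at 0.41 ± 0.13 (SE, edgeR adjusted p = 0.041), but not in 5 of the 6 fits without 1 library, all but that without re-expression replicate 2, with adjusted p-values up to 0.252. The call was also lost with DESeq2 (0.159), limma voom (0.065) and the GC and length correction in edgeR (0.071). MIB1, the ligase of this role with the highest CPM, had a value of 0.05 (edgeR adjusted p = 0.748).

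In the nuclear complex RBPJ was lower, while its coactivators MAML1, MAML2, EP300, KAT2B and SNW1 did not pass the threshold. RBPJ had 1115, 1077 and 1048 counts in KO and 961, 1048 and 1028 upon re-expression, and on the CPM scale the conditions did not overlap. Its mean fell from 134 ± 6.38 to 118 ± 4.86 CPM (SD, n = 3 per condition), or -0.18 ± 0.05 (SE) on the log2 scale, with an adjusted p of 0.026 in edgeR. The call was lost with library size scaling (adjusted p = 0.116), with DESeq2 (0.063) and in edgeR fits without KO replicate 1 (0.104) or re-expression replicates 1 (0.116) or 2 (0.080). EP300, with the highest CPM of the complex, had a value of 0.08 (95% interval -0.055 to 0.21).

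Among the corepressors TLE2 was higher. TLE2, a Groucho-family corepressor that HES proteins recruit, had 27, 41 and 24 counts in KO and 72, 56 and 54 upon re-expression, without overlap. Its log2 fold change of 0.90 ± 0.21 (SE) had an adjusted p of 0.0036 in edgeR. The family members TLE1, TLE3 and TLE4 did not pass, with values of 0.08, 0.10 and -0.05. NCOR1, a nuclear receptor corepressor with the highest CPM of this role, had a value of 0.07 (edgeR adjusted p = 0.446).

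Among inhibitors and turnover factors FBXW7 was lower. FBXW7, the ubiquitin ligase subunit that marks the Notch intracellular domain for degradation, had 179, 180 and 167 counts in KO and 131, 160 and 149 upon re-expression. On the CPM scale its conditions did not overlap, and it fell by 0.35 on the log2 scale (edgeR adjusted p = 0.026). Its call was lost with DESeq2 (adjusted p = 0.107), with library size scaling (0.062) and in edgeR fits without KO replicates 1 (0.075) or 2 (0.053) or re-expression replicate 1 (0.127). ITCH, with the highest CPM of this role, had a value of 0.04 (edgeR adjusted p = 0.674). NRARP, a feedback inhibitor and direct Notch target, had only 4 to 15 counts per library (0.19, 95% interval -0.67 to 1.05). Of the other HES and HEY genes HES6, HES7 and HEY2 were tested and none passed. HES6, which antagonizes HES1, had the highest CPM of them, with 28, 38 and 26 counts in KO and 51, 48 and 38 upon re-expression (0.49, edgeR adjusted p = 0.135). Of the remaining receptors and ligands DLK2 alone was tested, with a value of 0.11 (edgeR adjusted p = 0.810), and NOTCH4, DLL3, DLL4 and DLK1 had at most 2 counts in a library.

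**Figure D4:**
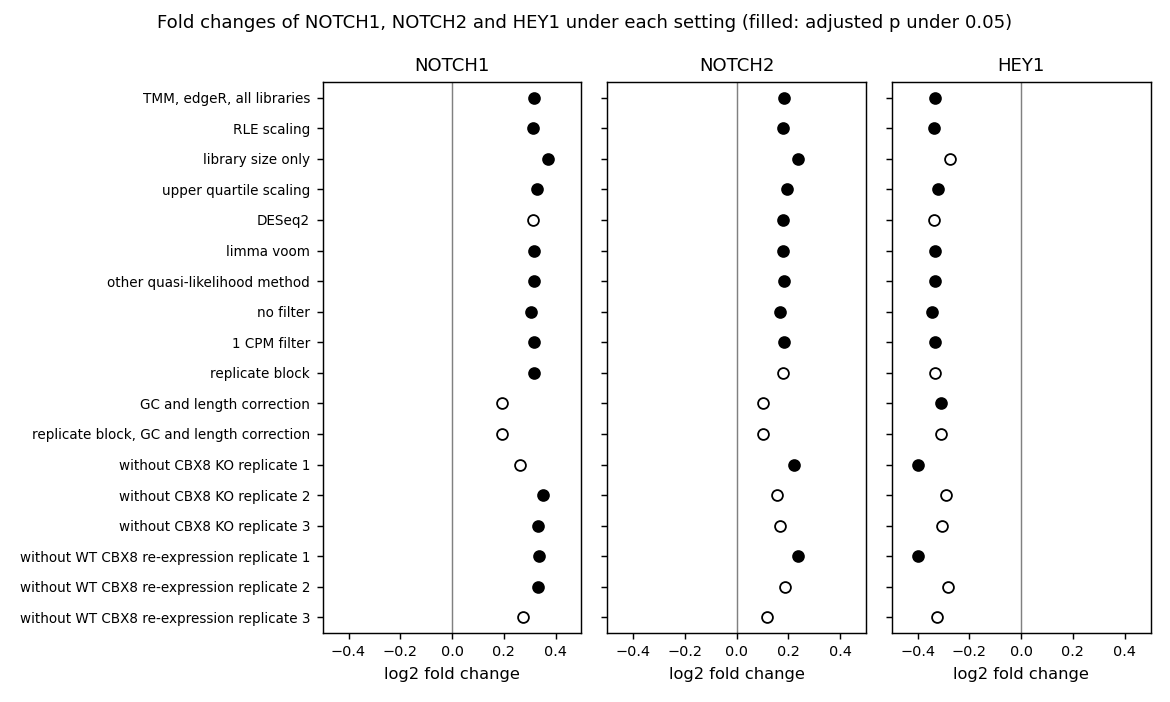
Log2 fold changes (x axis) of NOTCH1, NOTCH2 and HEY1 under the test as reported (top) and each alternative setting (y axis), with filled points where the adjusted p was under 0.05. All points of NOTCH1 and NOTCH2 lie above 0 and all points of HEY1 below 0, while the filled points thin out for single libraries left out and for the GC and length correction.

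Over the 17 alternatives the direction of the 3 called Notch genes did not change, with log2 fold changes of 0.19 to 0.37 for NOTCH1, 0.10 to 0.24 for NOTCH2 and -0.40 to -0.28 for HEY1. NOTCH1 passed the threshold in 12 of the 17, NOTCH2 in 10 and HEY1 in 9. JAG1, HES1 and HES4 passed in none. The alternatives use the same counts, so a direction they share is not independent support.

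The genes closest in profile were those with the smallest root-mean-square difference in centred log2 CPM over the 6 libraries, among 13587 genes. For NOTCH1 these were ANGPTL2 (0.0317), LRRC49 (0.0323) and TLDC1 (0.0343). For JAG1 they were CCDC71L (0.0179), CRAT (0.026) and CDK2AP1 (0.0283). For HEY1 they were SOX11 (0.0255), ANKZF1 (0.0365) and RPL18AP3 (0.043). TLDC1 (0.27) and ANKZF1 (-0.34) passed FDR < 0.05 in the same comparison, with edgeR adjusted p-values of 0.013 and 0.016, and the other 7 did not. All were picked on the same 6 libraries that give the fold changes, so fold changes like that of the member follow from the choice. How close the nearest of 13587 genes would lie by chance was not tested.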

How the data were processed

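RNA was sequenced from 3 CBX8 KO and 3 WT CBX8 re-expression libraries, grouped by title. Per the paper's methods and the labels, the authors sequenced poly(A) RNA as paired-end 100 bp reads, used FastQC and Trimmomatic, and ran HISAT2 against hg38. What the authors deposited are raw counts per gene symbol. The counting program, annotation and strand setting are not given in the sources used here.

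From these counts, genes were kept by filterByExpr in edgeR 4.0.16 (R 4.3.3), scaled by TMM and tested by glmQLFit and glmQLFTest with condition as the only term, Benjamini-Hochberg adjustment over 14461 genes and FDR < 0.05, the threshold in the study. The script was tested on simulated data. Standard errors are the absolute log2 fold change over the square root of F. Total counts were 7950190 to 8659796 per library, and CPM values use these totals after TMM adjustment. Reads carry no molecular identifiers, so counting intervals and the limit of 3 counts cover counting error only. Positions, transcript length and GC content come from GENCODE 44, matched by symbol (36219) or RefSeq synonym (873), and promoters from RefSeq (8 of 10 members). Copies were sought with minimap2 at 95% of transcript bases.

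The members and lists were chosen with earlier results of these data known. Named genes were all members, CBX8, other pathway genes past FDR < 0.05 (1 is counted but not reported here), the gene with the highest mean CPM in each role, and the 3 nearest profiles of the member with the lowest p in each role, with a pseudocount of 0.5 CPM. Genes named beyond this rule were chosen after their values were seen, which concerns APH1A, TLE1, TLE3, TLE4, NRARP, the coactivators, the marker genes with values of their own, genes sharing sequence with a member and genes named only as not tested. Alternatives were library size, upper quartile and RLE scaling, DESeq2 1.42.0, limma 3.58.1 voom, the other quasi-likelihood method, 2 filters, FDR < 0.01, the replicate block, a robust loess correction (span 0.5) for GC content and length, and each library left out.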

Additional observations from a re-analysis of the deposited data

How the results depend on the processing

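With all libraries, 2 Notch genes were higher and 1 was lower, and 5 other pathway genes were higher and 2 lower. The Notch genes called higher fell to 1 with DESeq2 and with the replicate block, and to 0 at FDR < 0.01 and with the GC and length correction, with or without the block. The Notch genes called lower fell to 0 with library size scaling, DESeq2, the block, the block with the correction, and FDR < 0.01. Other pathway genes called lower fell to 0 with library size scaling, DESeq2, the block and FDR < 0.01, and those called higher fell to 3 with the correction and with both correction and block. At an unadjusted p under 0.05, 2 Notch genes were higher and 1 was lower under each of these settings in edgeR and DESeq2. Of the other pathway genes 5 to 13 were higher and 2 to 4 were lower at that cutoff. The share of all tested genes under that cutoff is not given here, so these counts have no background to be read against. With 1 library left out, 0 to 2 Notch genes were higher and 0 to 1 lower, and 3 to 5 other pathway genes were higher and 0 to 3 lower. The lowest count of higher Notch genes came without WT CBX8 re-expression replicate 3, and that of lower ones without KO replicates 2 or 3 or re-expression replicates 2 or 3. For other pathway genes the lowest count of higher genes came without re-expression replicate 3, and that of lower genes without KO replicate 1 or re-expression replicate 1.

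Over all genes, 959 were lower and 901 higher. These became 592 and 1400 with library size scaling, which moved the share of calls that were higher from 48.4% to 70.3%, and 569 and 489 at FDR < 0.01. With DESeq2 695 were lower and 502 higher. With the GC and length correction, over 12612 genes tested, 1155 were lower and 907 higher, and with correction and block 1095 were lower and 869 higher. With 1 library left out the calls ranged from 635 to 851 lower and 593 to 792 higher, both lowest without WT CBX8 re-expression replicate 2. The cause was not tested, except that a stricter threshold lowers counts by construction.

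Values that changed sign had not passed the threshold. ADAM10 had -0.02425 with the correction, -0.02373 with correction and block, -0.01676 without KO replicate 3 and -0.01812 without re-expression replicate 3, and MIB1 had -0.06126 without re-expression replicate 3. With 1 library left out they ranged up to 0.06188 for ADAM10 and 0.1189 for MIB1. CBX8 stayed between 8.15 and 8.27.

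Deviations from the condition means were not shared by same-numbered libraries (correlations -0.11, -0.10 and -0.10 over 11402 genes), and none correlated best with its own number, so the numbers are not taken as pairs. With the block 766 genes were lower and 739 higher. The correction covered the 87.2% of tested genes with both values. At this depth DLL1 and HEYL had no count, and NOTCH3 and JAG2 entered only the fit without a filter.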

Other observations

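Tested genes around the Notch genes were looked at within 5 Mb on each side. Around HEY1 on chromosome 8 there were 17, with a median log2 fold change of -0.09, of which 2 were called higher and 1 lower by edgeR, and the 420 tested genes of the chromosome had a median of -0.04. Around NOTCH1 on chromosome 9 there were 89, with a median of 0.03, of which 5 were higher and 2 lower. The 518 tested genes of chromosome 9 had a median of 0.03. Around NOTCH2 on chromosome 1 there were 27, with a median of -0.01, of which 1 was higher and 2 were lower. The 1292 tested genes of chromosome 1 had a median of 0.0059. Around JAG1 there were 18 (median -0.06, 1 higher and 2 lower), around HES1 47 (0.06, 5 higher and 2 lower) and around HES4 63 (0.04, 4 higher and 2 lower). Over all genes tested 12.9% were called in either direction, which is the background for these counts. The called genes themselves had values of -0.33 (HEY1), 0.32 (NOTCH1) and 0.18 (NOTCH2), and a regional difference between the lines was not tested.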
